A study of Homo sapiens with 6 samples.

Results

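Death receptors are members of the tumour necrosis factor (TNF) receptor superfamily that signal for apoptosis from the cell surface, and the caspase-8 complex is the assembly through which they do so. The genes described were 10 named members of this system, taken by symbol, with earlier results of these data known: the receptors FAS, TNFRSF10A, TNFRSF10B, TNFRSF10D, TNFRSF12A, TNFRSF1A and TNFRSF21, the adaptor FADD, the protease CASP8 and its catalytically inactive relative CFLAR. All 10 had a row among the 16953 genes of the authors' deposited table, and all 10 had an adjusted p there.

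The study profiled RNA of H1048, an established human small cell lung cancer line of wild-type genotype as labelled. Cells were given 10 µM of ISP-I (isovalerylspiramycin I, a component of a macrolide antibiotic) in 3 samples or the solvent DMSO in 3 samples, both for 48 h, and the submitters call them biological replicates. The question put to the RNA was how expression under the drug departs from that under the solvent. The table compares 2 sets of 3 libraries, known by their letters as DEF and ABC, and no label used here gives the treatment or sample behind a letter. Every difference below is therefore that of set DEF over set ABC, with the direction read from their order in the table's title, and which set received ISP-I is not stated. For the same reason values per library were not used, so levels, replicate spread, standard errors and depth are not given here.

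When a ligand such as FASLG or TNFSF10 (TRAIL) clusters its receptor, the death domain on the receptor's inner side recruits FADD, and FADD recruits procaspase-8, which cleaves itself into active caspase-8. CFLAR, which encodes c-FLIP, enters the same complex through its death effector domains and limits that activation. TNFRSF1A (TNFR1) first builds a membrane complex with TRADD, RIPK1 and ubiquitin ligases that drives NF-kB, and a caspase-8 complex forms only later. Small cell lung cancer lines of the neuroendocrine type often lack caspase-8, and H1048 belongs to the tuft cell-like type.

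The adaptor FADD and the protease CASP8 were higher in set DEF, and CFLAR was lower. CFLAR is not the only modulator of the complex. PEA15, outside the 10 genes, binds FADD and caspase-8 and was higher at a log2 fold change of 1.28. Among the receptors, TNFRSF12A stood far above the others at 45.5-fold, while FAS and TNFRSF21 were lower. At an adjusted p under 0.05 in the authors' deposited table, 5 of the 10 genes were higher, 3 were lower and 2 were not called. Calls were common throughout that table: 57.6% of its 15976 genes with an adjusted p were called, 29.7% higher and 27.9% lower. With 8 of 10 called in a table where most genes were, the count alone says little about these genes. The median log2 fold change of the 10 genes was 0.36, against 0.05 over all genes with an adjusted p, and the median absolute change was 0.80 against 0.67. A change in RNA per cell and a change in which cells were present cannot be told apart in such bulk samples.

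**Figure D1:**
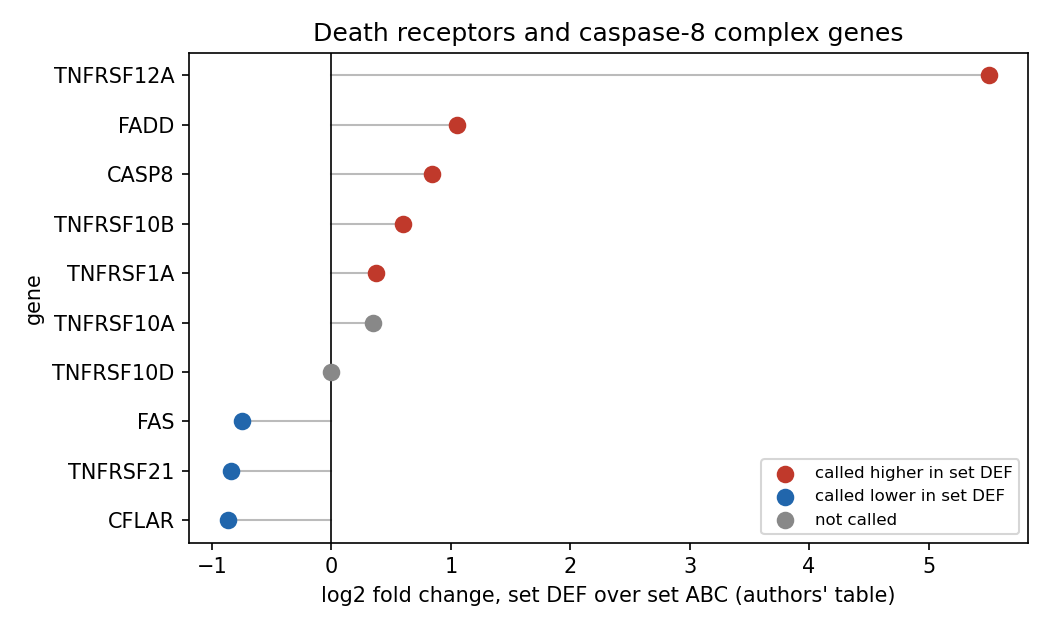
Log2 fold change of each of the 10 genes (x axis, set DEF over set ABC in the authors' deposited table), ordered by value, with colour for the call at an adjusted p under 0.05. TNFRSF12A lies at 5.51 and the other 9 genes lie between -0.87 and 1.05.

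Short stretches of RefSeq promoter sequence are shown for the members of the complex and FAS. These 4 genes are shown because their RefSeq promoter windows held the same short motif, the GC box. FADD and CASP8 were higher in set DEF, while CFLAR and FAS were lower. Sequences are RefSeq's on GRCh38.p14, 5′ to 3′ on the strand of the gene (plus for all 4). The set of RefSeq promoters used here held 6 of the 10 genes and lacked TNFRSF12A, TNFRSF10A, TNFRSF10B and TNFRSF10D. Windows from 250 to 51 bases before the most upstream RefSeq start were searched on both strands for 4 motifs: the GC box GGGCGG, the AP-1 motif TGANTCA, the CRE motif TGACGTCA and the NF-kB consensus. By the GENCODE coordinates given below, only the CASP8 stretch lies before its gene, which starts at 201233443. The stretches of FADD, CFLAR and FAS lie inside the annotated genes, which start at 70203163, 201116104 and 88990582. For FADD, CFLAR and FAS the RefSeq start therefore lies downstream of the GENCODE start. Positions before the start are counted from the RefSeq start. Each line gives 30 bases, and capitals mark the GC box with 12 bases on either side.
FADD, chr11:70203207-70203236: cgccgccagccaGGGCGGaaacggctgcgg
CASP8, chr2:201233355-201233384: actctccgcagtGGGCGGgaggagacgagg
CFLAR, chr2:201118603-201118632: caactgcgcgggGGGCGGggaattccgcag
FAS, chr10:88990726-88990755: ctggagcctcagGGGCGGgcactggcacgg

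A GC box was found in the windows of these 4 genes among the 6, but not in those of TNFRSF1A and TNFRSF21. It was also found in 34.5% of the 27305 windows of the same length, 1 per gene, in that set. That set was not limited to genes with a row in the authors' deposited table, so the share among such genes may differ. In CFLAR the GC box ended 96 bases before the start. It overlapped a match to the NF-kB consensus from 97 to 88 bases before the start, a match held by 7.62% of all windows. The FAS window held an AP-1 match from 242 to 236 bases before the start, against 5.33% of windows, and no window of these 6 genes held the CRE motif, which 1.01% of all windows did. These are matches of letters only and no binding was measured.

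FADD, which bridges the receptor's death domain to caspase-8, was 2.07-fold higher in set DEF (log2 fold change of 1.05 with adjusted p = 1.77e-13 in the authors' deposited table). It lies on chromosome 11 from 70203163 to 70207390 (GENCODE 29, GRCh38, plus strand). An antisense gene, AP000879.1, covers 54.9% of its exonic bases. The use of strand in counting is not given in sources used here, so reads of FADD and of this antisense gene may not be separated.

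CASP8, the initiator caspase that the complex activates, was 1.79-fold higher (log2 fold change of 0.84 with adjusted p = 2.38e-08 in the authors' deposited table). Its gene spans chromosome 2 from 201233443 to 201287711 on the plus strand, and its exons overlap no exon of another gene in GENCODE 29. It is the only one of the 3 complex genes without such an overlap.

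CFLAR went the other way and was 1.82-fold lower (log2 fold change of -0.87 with adjusted p = 1.1e-13 in the authors' deposited table). It lies on chromosome 2 from 201116104 to 201176687, upstream of CASP8 on the same strand. With CASP10 between them, the end of CFLAR and the start of CASP8 are 56755 bases apart. An antisense gene, a pseudogene on the other strand and a non-coding RNA on the same strand share 3.45%, 6.6% and 1.98% of its exonic bases. CFLAR makes long and short protein forms with different effects on caspase-8, and a value per gene does not separate them.

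These neighbouring genes therefore differed in direction: the log2 fold changes of CASP8 and CFLAR, both from the authors' deposited table, were 1.71 apart, a 3.27-fold change in the ratio of the transcripts. FADD and CFLAR were 1.91 apart, or 3.77-fold in their ratio, and FADD and CASP8 were 0.21 apart. These distances between genes were computed from the deposited fold changes and were not tested. CASP10, the caspase-8 relative encoded between CFLAR and CASP8, was listed at 1.41 in the authors' deposited table and was not called (adjusted p = 0.0568).

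TNFRSF12A, which encodes Fn14, the receptor for the cytokine TWEAK, had the largest change of the 10 genes (log2 fold change of 5.51 in the authors' deposited table, which gives its p as 0). That table gives p as 0 for only 10 genes, below the smallest other value of 1.46e-295. By size of increase TNFRSF12A ranked 97 of the 15976 genes with an adjusted p, and 0.607% of them had a change at least as large in either direction. Fn14 has no death domain of its own and signals through TRAF proteins. The gene lies on chromosome 16 from 3018445 to 3022383 on the plus strand, and shares 40 exonic bases (2.16%) with CLDN6 on the minus strand. CLDN6, a tight junction gene, was itself higher by 4.08 on the log2 scale (adjusted p = 1.29e-05 in the authors' deposited table), and the part of shared reads in either value was not tested.

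The other receptors changed by less than 2-fold. FADD and TNFRSF12A were the 2 of 10 genes both called and changed at least 2-fold, against 24.1% of all genes with an adjusted p in the authors' deposited table. For the other 6 called genes, between 39.4% and 70.1% of all genes with an adjusted p had a change as large or larger.

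**Figure D2:**
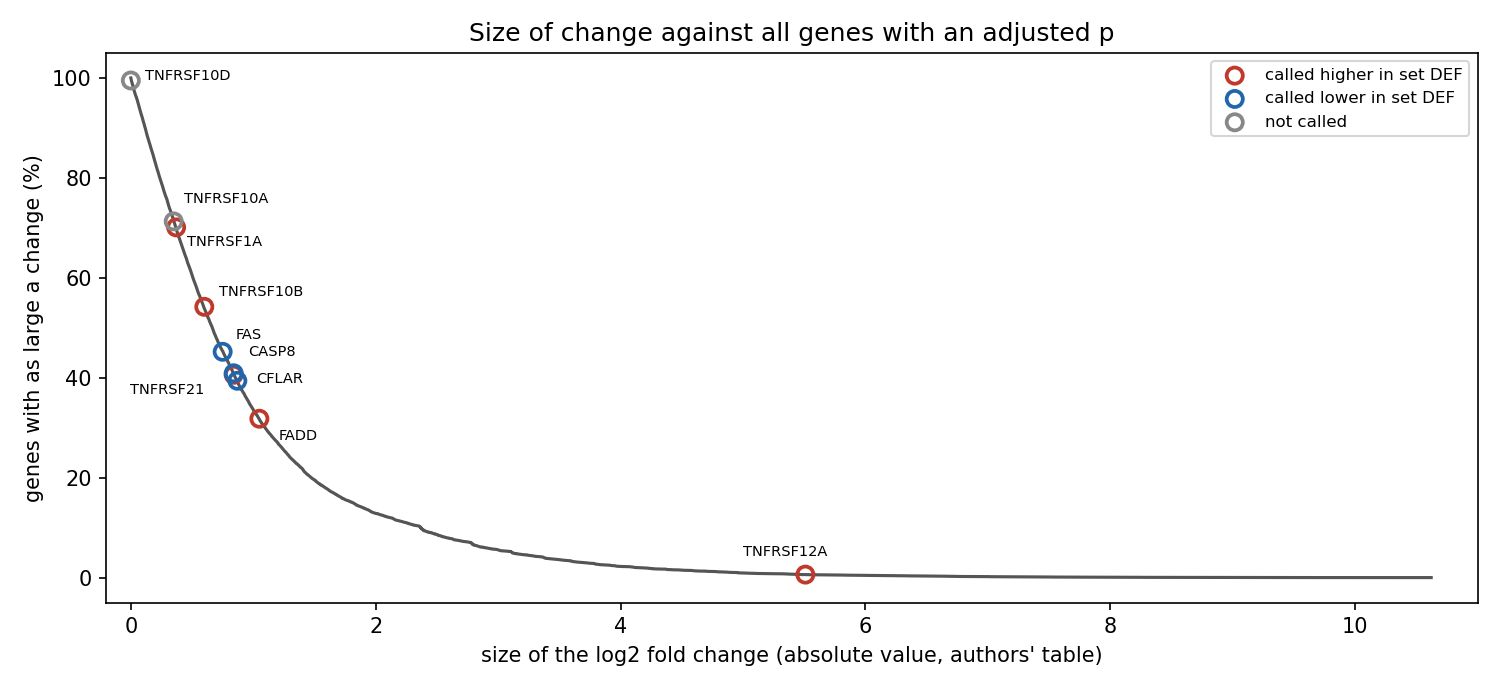
Size of the log2 fold change (x axis, absolute value) against the percentage of genes with an adjusted p whose change was at least as large (y axis). The line is all 15976 genes and the circles are the 10 described, that of CASP8 lying beneath that of TNFRSF21; TNFRSF12A lies at 0.607% and FADD, the next, at 31.8%.

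The receptors for TRAIL were not alike in their calls. TNFRSF10B, or DR5, which carries a death domain, was 1.51-fold higher (log2 fold change of 0.60 with adjusted p = 4.58e-07 in the authors' deposited table). TNFRSF10A, or DR4, the other TRAIL receptor with a death domain, was listed at 0.35 there and was not called (adjusted p = 0.11). TNFRSF10D, a decoy receptor whose death domain is truncated, was listed at -0.0046 in the authors' deposited table (adjusted p = 0.986), and 99.5% of all genes with an adjusted p had as large a change. The log2 fold changes of TNFRSF10B and TNFRSF10A differed by 0.24 and those of TNFRSF10B and TNFRSF10D by 0.60. Neither difference was tested, so a call in 1 gene and none in another does not show that they differ.

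These TRAIL receptor genes form a cluster on chromosome 8, with TNFRSF10B from 23020133 to 23069179, TNFRSF10D from 23135588 to 23164030 and TNFRSF10A from 23190452 to 23225126, all on the minus strand. The second decoy, TNFRSF10C, lies between TNFRSF10B and TNFRSF10D on the plus strand and was listed at -0.69 in the authors' deposited table without a call (adjusted p = 0.442). TNFRSF10C shares 26% and 13.3% of its exonic bases with AC107959.4 and AC107959.5 on its own strand, where strand cannot separate the reads. TNFRSF10B shares 1.3% of its exonic bases with RHOBTB2 on the opposite strand, which was listed at -0.23 and was not called (adjusted p = 0.105, the authors' deposited table). TNFRSF10A shares exonic bases with the opposite-strand genes AC100861.1 (9.01%) and TNFRSF10A-AS1 (7.59%).

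FAS, the receptor for FASLG and a known p53 target, was 1.69-fold lower in set DEF (log2 fold change of -0.75 with adjusted p = 0.00292 in the authors' deposited table). Its gene lies on chromosome 10 from 88990582 to 89015785 on the plus strand and shares 8.93% of its exonic bases with the smooth muscle actin gene ACTA2 on the other strand. ACTA2 was higher by 1.25 on the log2 scale (adjusted p = 1.04e-10 in the authors' deposited table), so the neighbours were called in opposite directions. How reads of the shared 380 bases were assigned is not given in sources used here.

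TNFRSF21, or DR6, a death domain receptor, was 1.79-fold lower (log2 fold change of -0.84 with adjusted p = 1.78e-14 in the authors' deposited table; chromosome 6, 47231532 to 47309905, minus strand). TNFRSF1A, the main TNF receptor of most cell types, was 1.29-fold higher (log2 fold change of 0.37 with adjusted p = 0.0034 in the authors' deposited table; chromosome 12, 6328757 to 6342114, minus strand). Neither gene shares exonic bases with another gene in GENCODE 29. The change of TNFRSF1A was the smallest of the 8 called genes.

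The rest of the pathway was described from 6 lists of 75 genes by role, of which 57 had an adjusted p. Of these 57, 16 were higher and 11 lower (47.4% called, against 57.6% of all genes), with a median log2 fold change of 0.21 in the authors' deposited table. The lists differed in how many members were called, from 0 of 1 for necroptosis to 12 of 15 for the adaptors, and these differences were not tested.

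**Figure D3:**
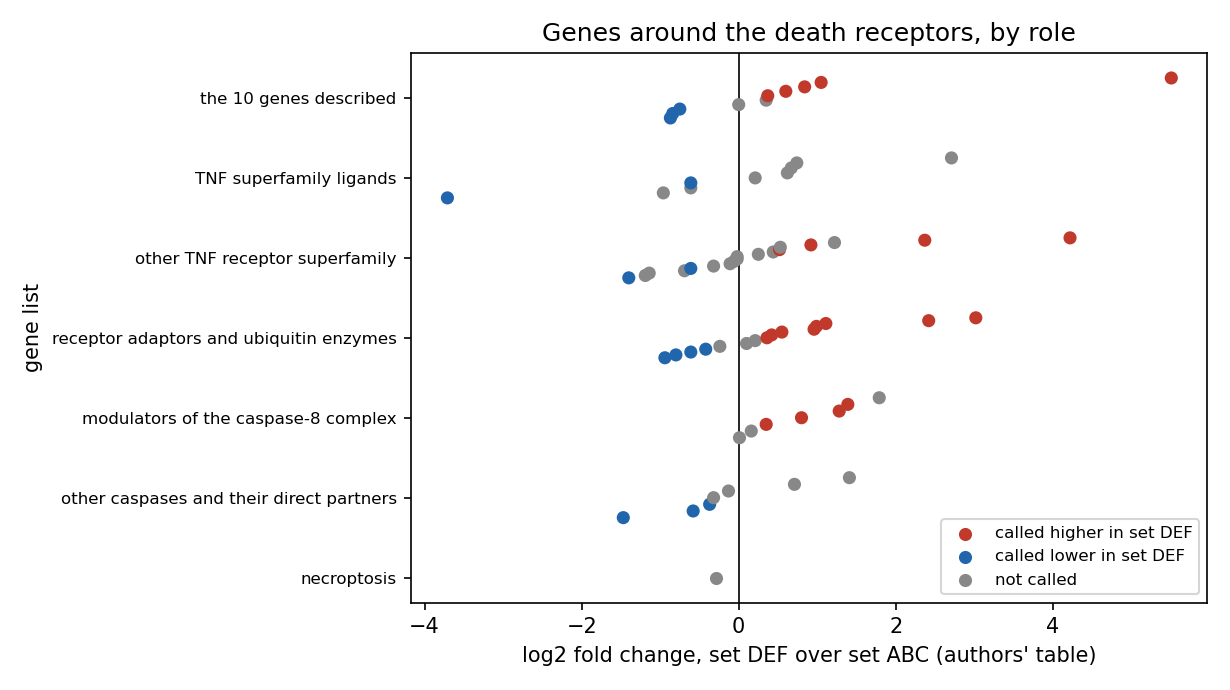
Log2 fold change (x axis, set DEF over set ABC in the authors' deposited table) of each gene with an adjusted p, in rows by role; vertical offsets within a row only separate the points, and colour marks the call at an adjusted p under 0.05. The adaptor row has 8 higher and 4 lower of 15, and the ligand row has 2 lower of 9 and none higher.

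Ligands of the family were mostly not called. Of 18 listed, 9 had an adjusted p, and 2 were lower and 0 higher in the authors' deposited table (22.2% called, against 57.6% of all genes). TNFSF10, which encodes TRAIL, was at -3.71 (adjusted p = 0.00939) and the ectodysplasin gene EDA at -0.61 (adjusted p = 0.00275), as listed in the authors' deposited table. For a 13.1-fold change the adjusted p of TNFSF10 was large, beside 1.1e-13 for CFLAR at 1.82-fold. The size of the TNFSF10 change is therefore imprecise. TNFSF12, which encodes TWEAK and was named after its value was seen because it is the ligand of TNFRSF12A, was at -0.96 and was not called (adjusted p = 0.173, the authors' deposited table). FASLG had no adjusted p, and TNF was not analysed here.

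Among 18 other receptors of the superfamily with an adjusted p, 4 were higher and 2 lower in the authors' deposited table. The share called was 33.3%, against 57.6% of all genes. Those higher were the costimulatory receptor TNFRSF9 (4.22, adjusted p = 0.0118), the neurotrophin receptor NGFR (2.37), TNFRSF18 (0.92) and the second TNF receptor TNFRSF1B (0.52), all as log2 fold changes in the authors' deposited table. The adjusted p of TNFRSF9 was likewise large for an 18.6-fold change, so its size is imprecise. The death domain receptor TNFRSF25, or DR3, was lower at -1.40 (adjusted p = 1.2e-14), as was CD27 at -0.61 (adjusted p = 0.0301) in the authors' deposited table.

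Adaptors and ubiquitin enzymes that act just below the receptors were called in 12 of 15 cases, 8 higher and 4 lower, in the authors' deposited table. That is 80% called against 57.6% of all genes, with a median of 0.36 against 0.05, and neither difference was tested. The highest were TRAF1 at 3.02, an NF-kB-induced adaptor, and the ubiquitin-editing inhibitor TNFAIP3 (A20) at 2.42. The ubiquitin ligases BIRC3 (1.11) and BIRC2 (0.42), the adaptors TRAF2 (0.99) and TRAF6 (0.36), the deubiquitinase CYLD (0.96) and the kinase RIPK1 (0.55) were also higher in the authors' deposited table. Lower were TRADD at -0.94, the adaptor of TNFRSF1A, the linear ubiquitin ligase subunit RBCK1 at -0.80, TRAF3 at -0.61 and the linear deubiquitinase OTULIN at -0.42, again as log2 fold changes in the authors' deposited table. The list thus held called genes of both signs among enzymes that add and that remove ubiquitin.

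Of 7 modulators of the caspase-8 complex with an adjusted p, 4 were higher and 0 lower in the authors' deposited table, with a median of 0.80. That is 57.1% called, near the 57.6% of all genes. The 4 were DEDD2 (1.39), a death effector domain protein, PEA15 (1.28), which binds FADD and caspase-8 through such a domain, FAF1 (0.80), which binds FAS, and CASP8AP2 (0.35), as log2 fold changes in the authors' deposited table. FAIM2 had no adjusted p and shares its listed fold change with 377 genes, itself included, of which 0 were called, so that value says nothing of FAIM2.

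Of 7 other caspases and partners reported here, 0 were higher and 3 were lower in the authors' deposited table. The share called was 42.9%, against 57.6% of all genes. CASP6 was at -1.47 (adjusted p = 1.51e-18), BID, the caspase-8 substrate that links to mitochondria, at -0.58 (adjusted p = 9.25e-07) and CASP2 at -0.37 (adjusted p = 0.000354) in the authors' deposited table. For necroptosis, the pore-forming MLKL was the only 1 of 3 listed genes with an adjusted p and was not called (-0.29, adjusted p = 0.296 in the authors' deposited table).

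Markers of the labelled line and of other cell types were called at shares from 0% to 75%, on 3 to 9 genes a list, against 57.6% of all genes. Of 9 tuft cell-like markers 5 were lower and 1 higher, POU2F3 at -1.71 among the former, and of 3 neuroendocrine markers with an adjusted p 2 were higher in the authors' deposited table. Leukocyte markers were 1 higher of 5 (LYZ, 4.90), fibroblast markers 3 lower of 4, and endothelial markers 0 called of 4 in the authors' deposited table. Marker levels were not used, so whether a marker was near 0 is not given, and the part of these markers' cells in the values of the 10 genes was not tested.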

How the data were processed

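RNA-seq of 6 samples (3 with ISP-I, 3 with DMSO) was available as 2 tables of the authors' comparison. Trimmomatic, STAR, HTSeq and DESeq2 are named, with build hg38, in the submitters' processing notes; versions, annotation and strand are not given in sources used here. Per the file headers, each gene has the authors' log2 fold change with its raw and adjusted p-value. In all, 36 columns hold values per library; they match no sample by label and were not used, so the count test planned for the case that they did was replaced by the authors' values, and no test was refitted.

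The smaller table of 4021 genes was checked to be the part of the larger with an unadjusted p under 0.05 and at least 2-fold. An adjusted p of exactly 1 (977 genes) was taken as missing; the other 15976 match Benjamini-Hochberg over those genes to within 1.19e-15. Genes were called at an adjusted p under 0.05 over all of these. All 10 members and, of each role list, every called gene are named; uncalled list genes, neighbours that share exons and markers were named after their values were seen. Some genes of these lists are not reported here and were left out of their counts. Members and lists were chosen with earlier results of these data known. Coordinates are GENCODE 29 on GRCh38, 1-based; exon overlaps were computed over all its transcripts. The software was Python 3.11.15, pandas 2.3.3, numpy 2.4.6, scipy 1.17.1 and matplotlib 3.10.9. Alternatives were a stricter threshold, the smaller table's rule, centring, and adjustment over all 16953 genes by Benjamini-Hochberg or Bonferroni.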

Additional observations from a re-analysis of the deposited data

How the results depend on the processing

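The calls of all 10 genes held at an adjusted p under 0.01 and with Benjamini-Hochberg adjustment over every gene. Subtracting the table's median log2 fold change (0.06) kept the same adjusted p, so it could only have changed a direction. It was too small to do so for any called member, the smallest change being 0.37 for TNFRSF1A. With Bonferroni adjustment, FAS and TNFRSF1A were no longer called and the other 8 genes kept their status. Under an unadjusted p below 0.05 and at least 2-fold, 2 of the 10 genes were higher (TNFRSF12A and FADD) and 0 lower, in place of 5 and 3, since that rule asks for a larger change. Over the pathway lists the same rule gave 10 higher and 3 lower in place of 16 and 11. The 10 included TNFSF18, DAXX and CASP10, which were not called in the main setting. Their adjusted p in the authors' deposited table was 0.0627, 0.0589 and 0.0568, and that rule uses the unadjusted p. Bonferroni adjustment left 10 and 5. The alternatives other than centring leave the fold change as it is, so they could not reverse a direction. No paired analysis was possible because no label ties the columns per library to samples and their replicate numbers; leaving out replicates, DESeq2 in place of another count test, and a filter on low counts were not run for the same reason. Depth per library is not given, so precision is known only through the authors' p-values.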
